A study of Mus musculus with 13 samples.

Results

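The genes described here build and acidify the lysosome, the compartment in which cells break down proteins, lipids and sugars. They are 37 genes chosen by name from the 22656 genes of the deposited table, and all 37 were found in it. The group holds 15 genes of the vacuolar proton pump (V-ATPase), 13 acid hydrolases and their activators, 5 lysosomal membrane proteins, the transcription factors Tfeb and Tfe3, and the lysosomal glycoproteins Grn and Gpnmb. The V-ATPase and the remaining lysosomal proteins are compared with each other as well as between hosts.

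RNA came from mouse melanoma cells of the line B16F10-TR-shApoe, a derivative of B16F10 named for a short hairpin RNA against its own Apoe gene, which both groups of mice received through the tail vein. The hosts were APOE2 knock-in mice (8 libraries) or APOE3 knock-in mice (5 libraries), whose age and sex the labels do not give. On day 15 the lungs were dissociated, and flow cytometry retained live GFP-positive, CD45-negative cells (CD45 marks leukocytes) for RNA extraction. The allele compared is that of the host, and the tumour line is a single line shared by all libraries. The labels do not say how many animals went into a library. The p-values therefore set the difference between hosts against the spread between these libraries, which may not be the spread between animals.

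The V-ATPase is a rotary pump: the cytosolic V1 sector binds and splits ATP, and the membrane-embedded V0 sector carries protons into the lysosome. The low pH it creates activates cathepsins and glycosidases, which arrive with the help of sorting receptors and act inside a membrane coated by LAMP proteins. Tfeb and Tfe3, relatives of the melanocyte factor Mitf, bind E-box sequences near many lysosomal genes, and pigment cells use a related acidifying machinery in their melanosomes.

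That E-box was searched for in the promoters of the members. The members were chosen as lysosomal genes, near many of which such sequences are known. The shares below are therefore not independent of the choice of members. RefSeq promoters (GRCm38.p6, the build that the submitters' notes call mm10), from 250 bases before to 50 bases after an annotated start, were matched by symbol for 31 of the 37 members. There was no entry for Atp6v1b2, Atp6v1c1, Atp6v1g1, Atp6v1h, Ctsb and Asah1. The palindrome TCACGTGA, which reads the same on both strands, was found in a promoter of 7 of the 31 members (22.6%), against 1.12% of the 27025 genes with an entry and 0.974% of all 32851 promoters of that length. Its inner hexamer CACGTG, which lies within every TCACGTGA, was found in 11 members (35.5%), against 8.09% of genes and 7.15% of promoters. The 7 stretches are shown because they include both pump subunits and hydrolases, with each TCACGTGA in capitals and the flanking bases in lower case, read 5′ to 3′ on the strand of the gene.
Ctsd (chr7:142387893-142387952, minus strand): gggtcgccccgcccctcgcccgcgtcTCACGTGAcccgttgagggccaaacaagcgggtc
Ctsa (chr2:164833734-164833810, plus strand): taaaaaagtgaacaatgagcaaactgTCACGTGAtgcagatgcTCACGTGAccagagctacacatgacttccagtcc
Gla (chrX:134601167-134601255, minus strand): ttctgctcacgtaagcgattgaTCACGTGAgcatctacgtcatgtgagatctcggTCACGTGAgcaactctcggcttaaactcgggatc
Mcoln1 (chr8:3500447-3500506, plus strand): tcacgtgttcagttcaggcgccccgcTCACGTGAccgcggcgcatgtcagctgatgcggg
Atp6v0d1 (chr8:105566035-105566094, minus strand): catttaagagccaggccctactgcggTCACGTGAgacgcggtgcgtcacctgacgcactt
Atp6v0e (chr17:26676372-26676431, plus strand): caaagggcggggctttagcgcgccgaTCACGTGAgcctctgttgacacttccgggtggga
Atp6v1a (chr16:44139358-44139417, minus strand): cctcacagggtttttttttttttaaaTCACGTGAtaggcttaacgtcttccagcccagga
Ctsa and Gla hold 2 copies each within the stretch shown. A match is a description of the letters and says nothing of binding. None of the 7 genes had an unadjusted p-value under 0.05 for host allele (limma), and their median log2 fold change was −0.075, against −0.059 for the 24 members with a promoter entry and no match.

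All values below are normalised counts, which are reads per gene divided by a size factor of the library. Group means are given for APOE2 first and APOE3 second, with the SD over 8 and 5 libraries, and a log2 fold change is APOE2 minus APOE3. The libraries read the end of each transcript next to the poly(A) tail, so counts are compared here between libraries and not between genes. Recovered reads ranged from 7080308 to 13039989 per library. Melanocyte genes (7 markers) summed to between 295578 and 454459 normalised counts in APOE2 and between 213130 and 327639 in APOE3. Their medians were 337144 and 246878, so this sum was not balanced between hosts. The 14 endothelial markers summed to between 875 and 1336 in APOE2 and between 1161 and 2509 in APOE3. For the 13 fibroblast and smooth muscle markers the sums were 286 to 850 and 377 to 2118. The 15 lung epithelial markers summed to between 821 and 4204 in APOE2 and between 3575 and 21481 in APOE3. Transcripts of lung cells were thus present, and by this sum most APOE3 libraries held more of them. The 18 leukocyte markers summed to between 512 and 2616 in APOE2 and between 2119 and 12470 in APOE3. A sum follows its most abundant genes, so the mean of the log2 values, centred over the 13 libraries, is given too. For lung epithelium without Napsa and Lamp3 it ran from −1.93 to 0.90 in APOE2 and from −0.15 to 1.18 in APOE3. APOE2 replicate 1, at 0.90, lay above APOE3 replicates 1, 2 and 5, at −0.15, 0.81 and 0.58. For leukocytes without Lyz2 and Laptm5 the mean ran from −1.19 to 1.02 in APOE2 and from −0.10 to 0.75 in APOE3. In such bulk samples, fewer cells of a type and less RNA per cell cannot be told apart. The 14 macrophage markers, a cell type rich in lysosomes, summed to between 27.6 and 170 in APOE2 and between 29.5 and 123 in APOE3, with Adgre1, Msr1 and Siglecf at a mean under 1. Apoe itself had 1217 to 2101 normalised counts in APOE2 and 1193 to 2369 in APOE3 (limma adjusted p = 0.852).

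No member passed the test for a difference between APOE2 and APOE3 hosts. By limma on log2(normalised count + 1), 0 of the 37 members had an adjusted p-value under 0.05, where 0.79% of the 12403 genes tested did (0.411% higher in APOE2 and 0.379% lower). An unadjusted p-value under 0.05 was found for 5 members, or 13.5%, near the 14.2% of all genes. On the higher side in APOE2 were Psap, Atp6v1b2, Atp6v1g1 and Atp6v1e1 (7.51% of all genes), and on the lower side Asah1 (6.71% of all genes). With equal library totals the count was 2 higher and 6 lower, where 685 and 1083 of all 12407 genes tested were. On the recovered reads, 0 members passed by edgeR and 0 by DESeq2, where 1.11% and 2.51% of genes did, and the unadjusted counts were 7 and 8 of 37, beside 13.2% and 14.5% of all genes. The ranges of the groups overlapped for every member, whereas they did not for 0.984% of all genes. Across the 27 other settings tried, 0 members passed in any, and the smallest adjusted p-value of a member was 0.055. The unadjusted count moved with single libraries, as did that of all genes. It was 2 without APOE2 replicate 2 (12.1% of all genes), and 3 without APOE2 replicate 3 (13.1%) or APOE3 replicate 2 (12.5%), 3 (13.4%) or 4 (13.1%). It was 9 without APOE3 replicate 1 (16.3%) and 10 without APOE3 replicate 5 (15.3%).

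Log2 fold changes of the members ran from −0.44 to 0.80 with a median of −0.057, beside a median of 0.00037 over all genes. The median size of the change, whatever its sign, was 0.14 for the members and 0.22 for all genes, with a median SE of 0.135 and 0.216. Neither these figures nor the shares of intervals that follow are matched for level. At a matched level the spread of the members was close to that of other genes, as given further below. The intervals show how far a difference can be bounded. The 95% confidence interval lay inside a 1.5-fold change in either direction for 27 of the 37 members (39.3% of all genes) and inside a 2-fold change for 35 (69.1%). The 2 members whose interval reached beyond 2-fold were Psap and the proteolipid gene Atp6v0c. Of the 37 log2 fold changes 13 were above 0 and 24 below. The split was 18 and 19 without APOE3 replicate 2, 10 and 27 with equal totals, and 19 and 18 with the lung epithelial marker mean as a covariate, so no common direction held.

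**Figure D1:**
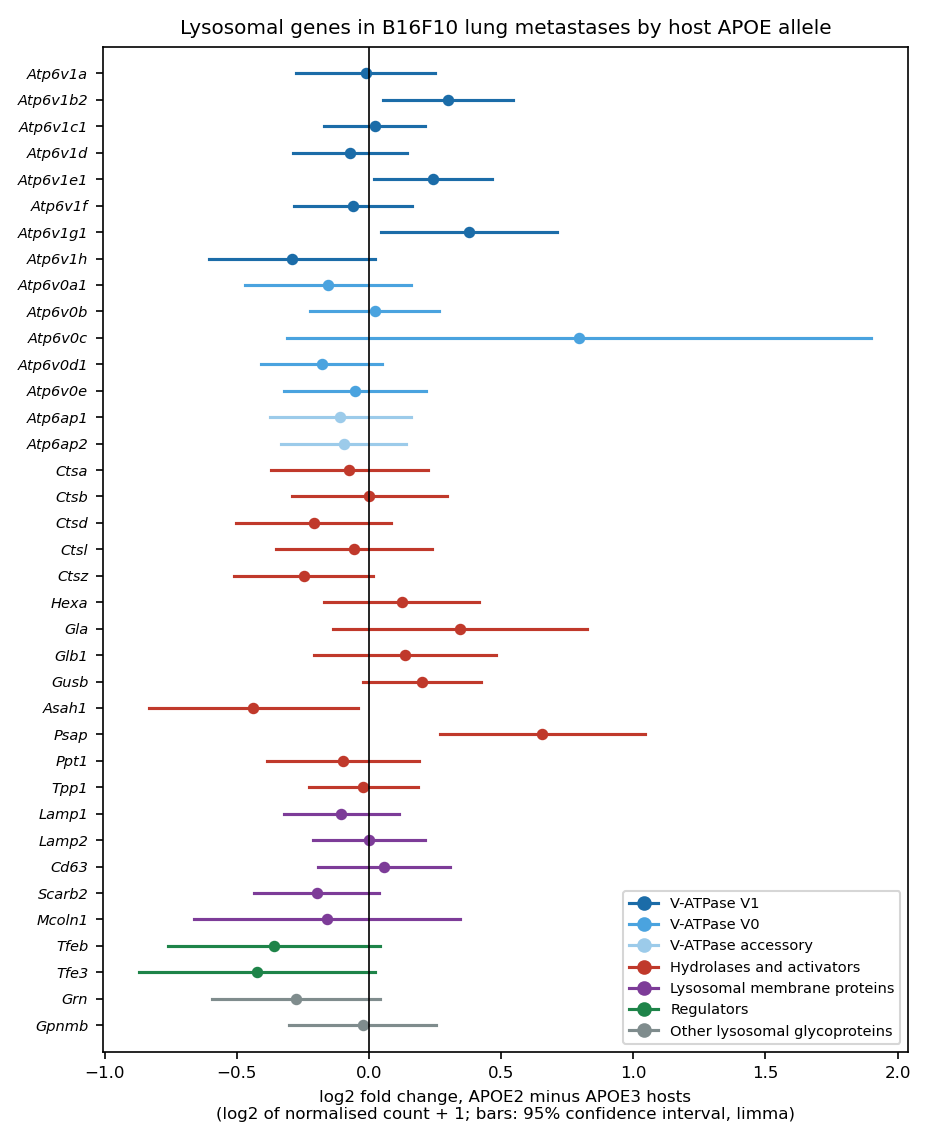
Log2 fold change (x axis, APOE2 minus APOE3 hosts, on the log2(normalised count + 1) scale) of each of the 37 members (y axis), coloured by role, with bars for the 95% confidence interval from limma. Most points lie near 0, 35 of the 37 intervals lie between −1 and 1, and the widest interval is that of Atp6v0c.

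Among the 8 genes of the ATP-splitting V1 sector, 4 had a positive and 4 a negative log2 fold change, with a median of 0.0042. The 3 with the smallest p-values were Atp6v1b2, Atp6v1g1 and Atp6v1e1. Atp6v1b2 (ENSMUSG00000006273, GRCm38 chr8:69088646-69113711) encodes the widely expressed isoform of the nucleotide-binding B subunit. In APOE2 its lowest, median and highest values were 3010, 3598 and 4384 normalised counts, and the APOE3 libraries had 2727, 2634, 3244, 2358 and 3853. The 4 lowest APOE3 libraries lay below the APOE2 median and the fifth above it, so the groups overlapped. Means were 3613 ± 416 and 2963 ± 592 (SD), and the log2 fold change of 0.30 ± 0.12 (SE) gave a limma unadjusted p of 0.0188 and an adjusted p of 0.254. A stretch of 100 bases at the end of an Atp6v1b2 transcript matched Mrpl27 at 95% identity.

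Atp6v1g1 (ENSMUSG00000039105, chr4:63544772-63550750), a subunit of the peripheral stalk, had 1629, 2066 and 2411 normalised counts as lowest, median and highest values in APOE2. The APOE3 libraries had 2076, 880, 1486, 1703 and 1996. APOE3 replicate 2 was far below the rest, replicate 3 also lay under the APOE2 range, and the other APOE3 libraries lay within it. Between means of 2049 ± 309 and 1628 ± 479.9 (SD), the log2 fold change of 0.38 ± 0.16 (SE, limma adjusted p = 0.296) was 0.17 without APOE3 replicate 2. Atp6v1e1 (ENSMUSG00000019210, chr6:120794305-120822793), its stalk partner, had 2647, 3310 and 3604 in APOE2. In APOE3 it had 2813, 2210, 2655, 2929 and 3312. APOE3 replicate 2 was again lowest. Means were 3275 ± 298 and 2784 ± 402 (SD), and the log2 fold change of 0.24 ± 0.11 (SE, limma adjusted p = 0.312) was 0.16 without it.

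The remaining V1 genes showed smaller or opposite differences. The catalytic A subunit gene Atp6v1a had means of 2988 ± 385 and 3049 ± 602 (SD), a log2 fold change of −0.013. Atp6v1c1, which encodes a stalk subunit, had the smallest coefficient of variation of all members in both groups, with 2211 ± 99.5 and 2180 ± 150.4 (SD) and a log2 fold change of 0.022. The rotor subunit genes Atp6v1d and Atp6v1f had 3189 ± 216 and 3380 ± 521 (SD) and 7550 ± 596 and 7938 ± 1367 (SD), with log2 fold changes of −0.073 and −0.061. Atp6v1f turned positive, at 0.038, without APOE3 replicate 2. Atp6v1h, which regulates the coupling of the sectors, had 481 ± 86.0 and 588 ± 116 (SD), a log2 fold change of −0.29 ± 0.15 (SE, limma adjusted p = 0.391).

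The V0 sector and the accessory proteins showed no larger differences, apart from Atp6v0c. Atp6v0a1, which encodes a membrane subunit of the proton path, had 1944 ± 279 and 2244 ± 832 (SD) and a log2 fold change of −0.16. The proteolipid gene Atp6v0b had 2722 ± 362 and 2698 ± 458 (SD), or 0.021 on the log2 scale. Atp6v0d1, whose product links the rotor to the ring, had 819 ± 78.5 and 925 ± 71.6 (SD), or −0.18, and the small subunit gene Atp6v0e had 1444 ± 190.3 and 1513 ± 304 (SD), or −0.053. The accessory genes Atp6ap1 and Atp6ap2 (the prorenin receptor) had 1650 ± 191 and 1811 ± 475 (SD) and 2181 ± 279 and 2333 ± 354 (SD), with log2 fold changes of −0.11 and −0.095. Limma gave these 6 genes adjusted p-values between 0.481 and 0.960. Atp6v0a1 and Atp6ap1 turned positive, at 0.042 and 0.036, without APOE3 replicate 2. That library had 3711 normalised counts of Atp6v0a1, while the other APOE3 libraries had 1680 to 2080.

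Atp6v0c (ENSMUSG00000024121, chr17:24163866-24169702) encodes the proteolipid that forms the proton-carrying ring. It had low counts: 31.3, 55.4 and 107 as lowest, median and highest values in APOE2, and 60.0, 37.3, 39.5, 3.77 and 134 in APOE3. The highest and the lowest value of all 13 libraries were both in APOE3. From means of 65.9 ± 26.05 and 55.0 ± 48.7 (SD), the fitted log2 fold change was 0.80 ± 0.54 (SE, limma adjusted p = 0.519). It was 0.065 without APOE3 replicate 4 and 0.28 by edgeR. The last 300 bases of an Atp6v0c transcript are identical to the pseudogene Atp6v0c-ps2, which had a mean of 23.5 normalised counts, and 97.3% identical to Atp6v0c-ps1, with a mean of 0.052. How reads shared by such copies were counted is not stated in the sources used here, so the level of Atp6v0c is uncertain.

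Of the 13 hydrolases and activators, 6 had a positive and 7 a negative log2 fold change, with a median of −0.022. Psap (ENSMUSG00000004207, chr10:60277627-60302597) had the smallest p-value of all members. It encodes prosaposin, the precursor of the saposins that present sphingolipids to hydrolases. The lowest, median and highest values in APOE2 were 5280, 6454 and 9752 normalised counts, and the APOE3 libraries had 3948, 2671, 3295, 6743 and 6131. APOE3 replicates 1, 2 and 3 lay below all 8 APOE2 libraries, while replicates 4 and 5 lay within the APOE2 range. The means were 6898 ± 1608 and 4558 ± 1787 (SD). On the log2 scale this was 0.66 ± 0.19 (SE) with a 95% interval from 0.27 to 1.04, and limma gave an unadjusted p of 0.00186 and an adjusted p of 0.104. The log2 fold change was 0.49 without APOE3 replicate 2 (adjusted p = 0.209), 0.67 with the lung epithelial covariate, and its adjusted p was 0.148 by edgeR and 0.207 by DESeq2.

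Asah1 (ENSMUSG00000031591, chr8:41340197-41374773) encodes acid ceramidase, which works on a product of the saposin-dependent pathway. Its lowest, median and highest values in APOE2 were 138, 159 and 211, and the APOE3 libraries had 151, 280, 200, 276 and 243. Replicates 2, 4 and 5 of APOE3 lay above every APOE2 library, and replicate 1 lay among the lower APOE2 values. Means of 167 ± 24.4 and 229.9 ± 54.8 (SD) gave a log2 fold change of −0.44 ± 0.19 (SE, limma adjusted p = 0.303). Ctsz (ENSMUSG00000016256, chr2:174427493-174439039), a carboxypeptidase of the cathepsin family, had 1239, 1387 and 1688 in APOE2 and 1486, 2056, 1592, 2200 and 1337 in APOE3. APOE3 replicates 2 and 4 exceeded the APOE2 range, and the rest lay within it. Between means of 1444 ± 176 and 1734 ± 374 (SD), the log2 fold change of −0.25 ± 0.13 (SE, limma adjusted p = 0.382) was −0.057 with the lung epithelial covariate.

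The major cathepsins differed little. The cysteine protease gene Ctsb had 4198 ± 762 and 4213 ± 938 (SD), a log2 fold change of 0.00037 with an interval from −0.29 to 0.29. Ctsb overlaps Fdft1 on the opposite strand. Ctsl, another cysteine protease gene, had 869.7 ± 160.3 and 904 ± 159.6 (SD), or −0.057 on the log2 scale. The aspartic protease gene Ctsd had 3793 ± 534 and 4503 ± 1426 (SD), or −0.21 ± 0.14 (SE, limma adjusted p = 0.520), and −0.042 without APOE3 replicate 2. Ctsa, whose product protects β-galactosidase, had 689.7 ± 115 and 724 ± 119 (SD), or −0.075, and the peptidase gene Tpp1 had 1807 ± 129 and 1838 ± 182 (SD), or −0.022. Ctsa, Ctsz and Ppt1 overlap expressed genes on the opposite strand (Pltp and Neurl2, Nelfcd, and Cap1).

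The glycosidases were all on the positive side without passing the test. Gla, which cleaves α-galactose from glycolipids, had 117 ± 17.6 and 93.3 ± 24.3 (SD), a log2 fold change of 0.34 ± 0.23 (SE). Gusb (β-glucuronidase) had 1490 ± 150.5 and 1296 ± 148 (SD), or 0.20 ± 0.11 (SE). Glb1 (β-galactosidase) had 377 ± 78.9 and 339 ± 53.8 (SD), or 0.14 ± 0.17 (SE), and Hexa (hexosaminidase) had 2195 ± 379.6 and 2045 ± 505 (SD), or 0.12 ± 0.14 (SE). Adjusted p-values from limma for these 4 lay between 0.403 and 0.757. Hexa was negative, at −0.022, without APOE3 replicate 1. The thioesterase gene Ppt1 had 396 ± 47.6 and 425 ± 64.1 (SD), a log2 fold change of −0.098.

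**Figure D2:**
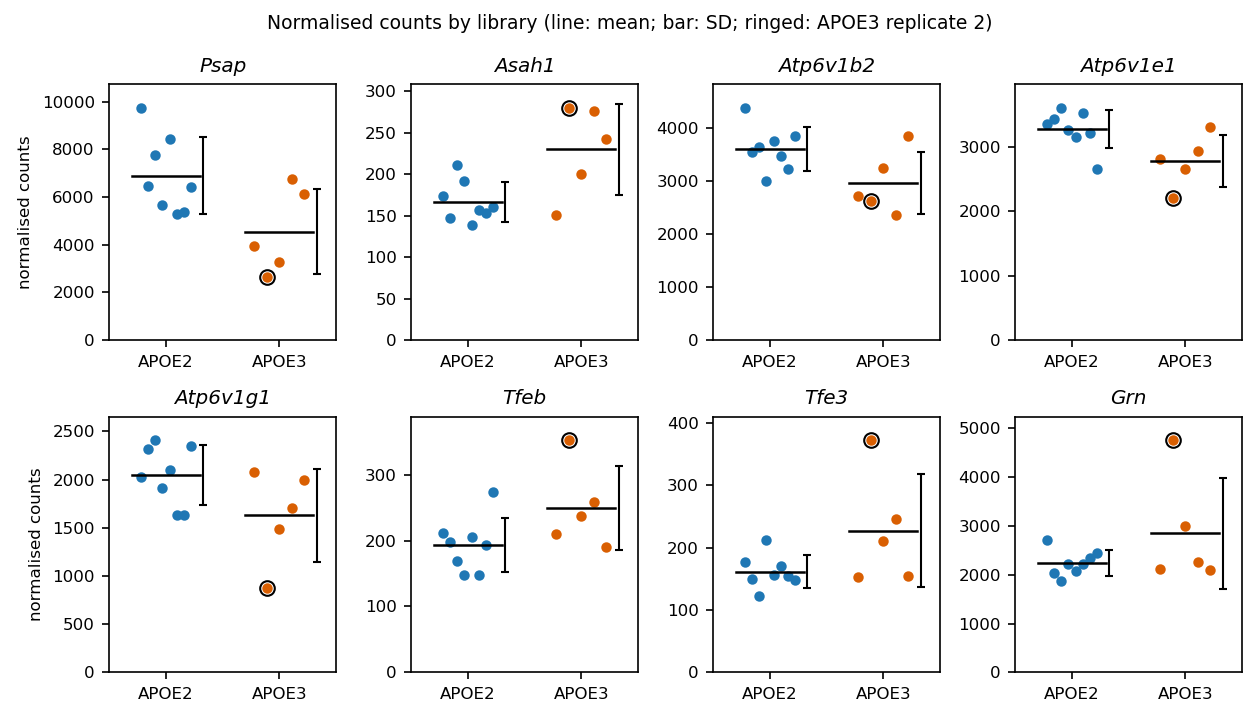
Normalised counts (y axes, each from 0) of 8 members in the APOE2 and APOE3 libraries (x axes). Points are libraries, lines are group means, bars are SD, and a ring marks APOE3 replicate 2. In each panel the ranges overlap, and the ringed library is the highest of all 13 for Asah1, Tfeb, Tfe3 and Grn and the lowest for Psap, Atp6v1e1 and Atp6v1g1.

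Of the 5 membrane proteins, 4 had a negative log2 fold change, with a median of −0.10, and 0 had an unadjusted p-value under 0.05. Scarb2 (ENSMUSG00000029426, chr5:92441314-92506833), also called LIMP-2, carries glucocerebrosidase to the lysosome. It had 851, 980 and 1176 normalised counts as lowest, median and highest values in APOE2 and 1196, 921, 1110, 1201 and 1169 in APOE3. The APOE3 libraries other than replicate 2 lay at or above the upper part of the APOE2 range. Means of 977 ± 114 and 1119 ± 117 (SD) gave a log2 fold change of −0.20 ± 0.11 (SE, limma adjusted p = 0.442).

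Lamp1 (ENSMUSG00000031447, chr8:13159161-13175338), a main glycoprotein of the lysosomal coat, had 5084, 5661 and 6280 in APOE2 and 5312, 7829, 5367, 5646 and 6309 in APOE3. With means of 5616 ± 376 and 6093 ± 1048 (SD), the log2 fold change of −0.10 ± 0.11 (SE, limma adjusted p = 0.697) was −0.010 without APOE3 replicate 2, the highest library. Lamp2, its relative, had 1879 ± 153 and 1883 ± 205 (SD), a log2 fold change of −0.00042 with an interval from −0.21 to 0.21. The tetraspanin gene Cd63 had 26485 ± 3087 and 25498 ± 3519 (SD), a log2 fold change of 0.057. Cd63 has a copy, Cd63-ps, with 99.3% identity over the last 300 bases and a mean of 75.2 normalised counts. Mcoln1 (ENSMUSG00000004567, chr8:3500457-3515232), the calcium channel TRPML1, had 83.7, 147 and 186 in APOE2 and 134, 250, 148, 110 and 150 in APOE3. With means of 141 ± 39.7 and 158 ± 53.5 (SD), the log2 fold change of −0.16 ± 0.24 (SE, limma adjusted p = 0.816) was 0.018 without APOE3 replicate 2.

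Tfeb and Tfe3 had lower means in APOE2 without passing the test. Tfeb (ENSMUSG00000023990, chr17:47737030-47792419) had 147, 196 and 274 as lowest, median and highest values in APOE2 and 210, 353, 237, 258 and 190 in APOE3. Tfe3 (ENSMUSG00000000134, chrX:7762560-7775202) had 123, 155 and 213 in APOE2 and 153, 373, 211, 246 and 154 in APOE3. In both genes APOE3 replicate 2 was the highest of all 13 libraries, and the other APOE3 libraries lay within or just above the APOE2 range. Means were 193 ± 40.9 and 249 ± 63.2 (SD) for Tfeb and 162 ± 26.3 and 227 ± 90.5 (SD) for Tfe3. The log2 fold changes were −0.36 ± 0.19 for Tfeb and −0.42 ± 0.22 for Tfe3 (SE), with limma adjusted p-values of 0.406 and 0.377. Without APOE3 replicate 2 both were −0.23. Mitf (ENSMUSG00000035158), their relative and a master regulator of pigment cells, had 6705, 8192 and 9249 in APOE2 and 7790, 15651, 10336, 6332 and 5972 in APOE3. Its log2 fold change of −0.11 ± 0.17 (SE, limma adjusted p = 0.819) was 0.11 without that library. Tfec, the fourth family member, was below the filter of a mean of 10.

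Grn (ENSMUSG00000034708, chr11:102430315-102437048) encodes progranulin, which lysosomes cut into granulins. It had 1882, 2214 and 2705 in APOE2 and 2108, 4759, 3001, 2267 and 2107 in APOE3. With means of 2242 ± 258 and 2848 ± 1130 (SD), the log2 fold change of −0.28 ± 0.15 (SE, limma adjusted p = 0.424) was −0.073 without APOE3 replicate 2, whose value was far above the rest. Gpnmb (ENSMUSG00000029816, chr6:49036546-49070929), a glycoprotein of melanosomes and lysosomes, had 41489, 44162 and 48785 in APOE2 and 33636, 54191, 45206, 39312 and 58531 in APOE3. The APOE3 libraries lay both inside and on either side of the narrow APOE2 range, the means were 44589 ± 2796 and 46175 ± 10274 (SD), and the log2 fold change was −0.024 ± 0.13 (SE, limma adjusted p = 0.960).

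One APOE3 library therefore stood apart across the group. APOE3 replicate 2 was the highest of the 13 libraries for 13 of the 37 members and the lowest for 10, where it was highest for 18.5% and lowest for 17.3% of all genes tested. The 13 included Atp6v0a1, Atp6ap1, Atp6ap2, Ctsa, Ctsd, Lamp1, Mcoln1, Tfeb, Tfe3 and Grn, and the 10 included Psap, Gla, Gusb and the V1 genes Atp6v1a, Atp6v1c1, Atp6v1e1 and Atp6v1g1. Its members deviated from their 13-library means by 0.44 on average on the log2 scale, whatever the sign, against 0.13 to 0.28 in the other libraries. Over all genes that figure was 0.59 in APOE3 replicate 2 and 0.33 to 0.59 in the others. Gm42418, which overlaps ribosomal RNA sequence, held 3.74% of its normalised counts and 3.03% in APOE3 replicate 3, against 0.662% to 2.17% in the remaining libraries. The part of these differences in the members' values was not tested.

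**Figure D3:**
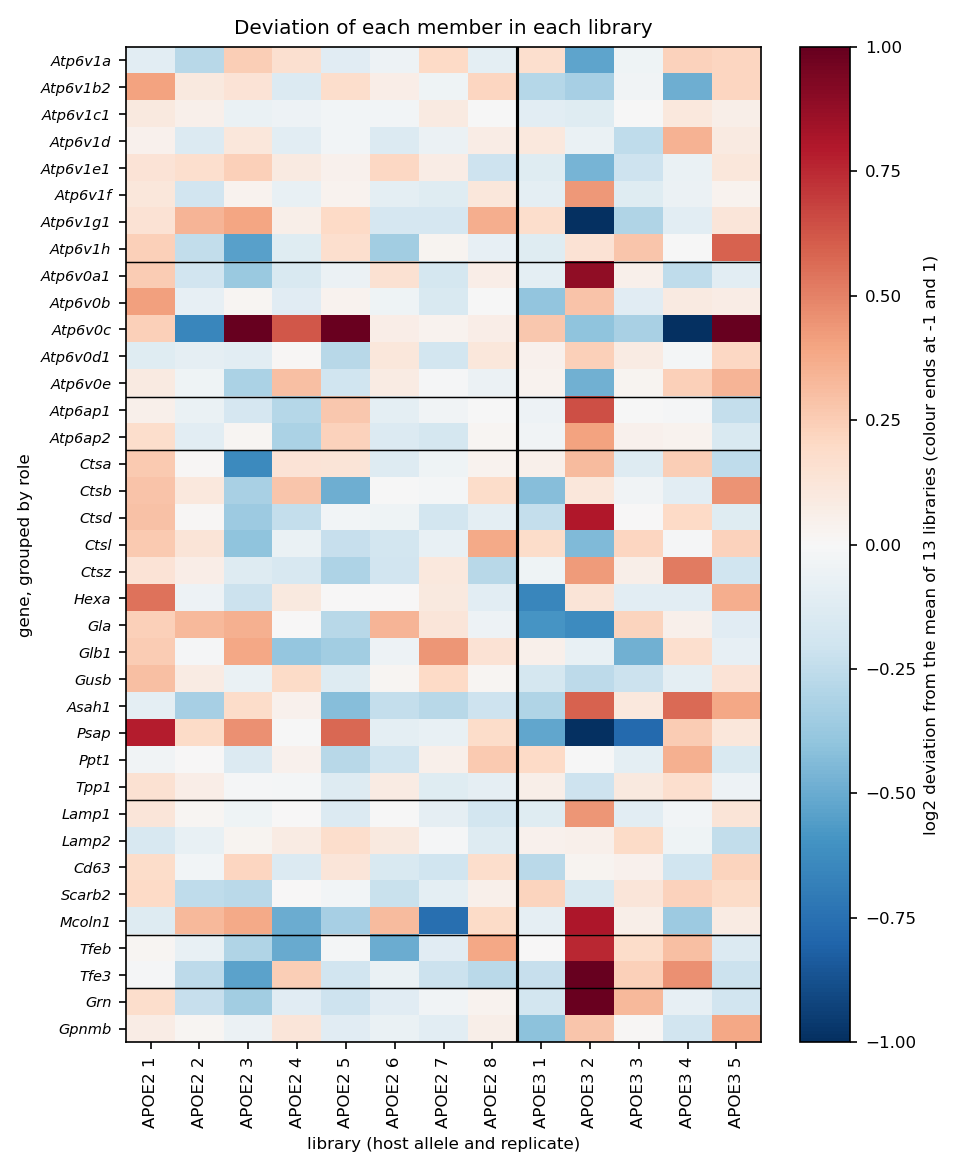
Log2 deviation of each member (y axis, grouped by role) in each library (x axis) from the member's mean over the 13 libraries, with colours ending at −1 and 1. The column of APOE3 replicate 2 holds the highest value of 13 members and the lowest of 10, and the row of Atp6v0c is the most uneven.

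The V-ATPase genes and the other lysosomal genes were then set side by side within each library. The mean log2 level of the 15 V-ATPase genes minus that of the 18 hydrolases and membrane proteins was between 0.28 and 0.62 in APOE2 and between 0.085 and 0.55 in APOE3. The group means were 0.43 ± 0.099 (SD, n = 8) and 0.38 ± 0.19 (SD, n = 5), which differed by 0.054, less than either SD. Only the difference between hosts can be read from this, since a level of one gene is not compared with that of another. The lowest library was APOE3 replicate 4. There the V-ATPase genes deviated from the 13-library mean by −0.225, or by 0.0021 without Atp6v0c. In the same library the hydrolases deviated by 0.17 and the membrane proteins by −0.080. The difference between hosts was −0.020 without that library and 0.000182 with Atp6v0c left out. Against the 13-library mean, the V-ATPase genes other than Atp6v0c deviated by between −0.055 and 0.14 in every library. The hydrolases had their lowest value, −0.19, in APOE3 replicate 1 and their highest, 0.26, in APOE2 replicate 1. The membrane proteins spread from −0.23 in APOE2 replicate 7 to 0.24 in APOE3 replicate 2. The host medians of the log2 fold change were −0.053 for the V-ATPase genes and −0.039 for the 18 others. No test was made on these means, because the genes were chosen by name.

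**Figure D4:**
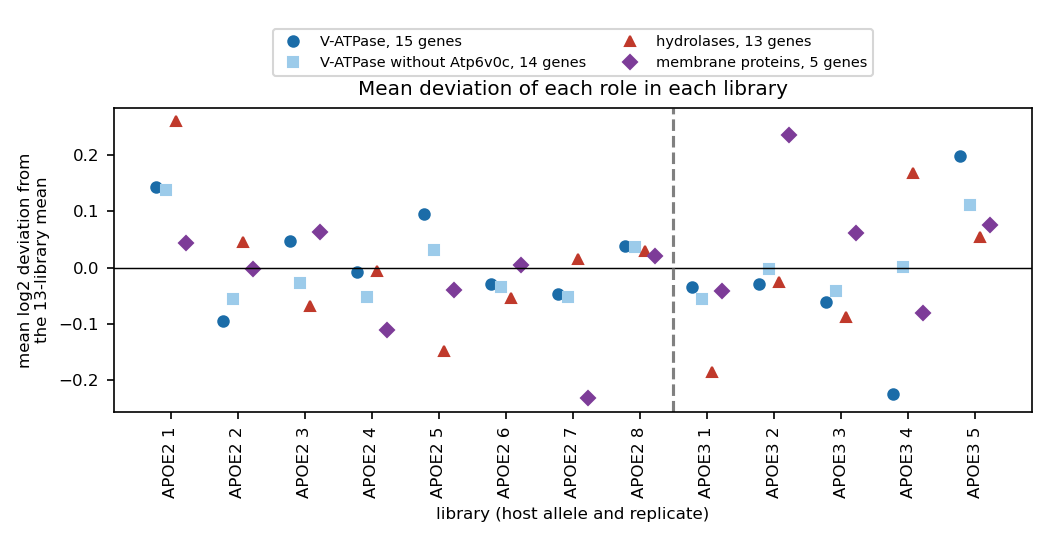
Mean log2 deviation from the 13-library mean (y axis) of the V-ATPase genes with and without Atp6v0c, the hydrolases and the membrane proteins in each library (x axis). Both hosts have libraries above and below 0 for each role, and the V-ATPase value of APOE3 replicate 4 moves from −0.23 to 0.0021 when Atp6v0c is left out.

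The spread between libraries was close to that of other genes at the same level. The median coefficient of variation of the members was 12.9% within APOE2 and 19.8% within APOE3. For the 2031 genes with a mean between 703 and 3090 normalised counts, the quartiles of the members, it was 12.4% and 18.2%, and for all genes tested 22.4% and 29.1%.

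Other genes of the lysosomal pathway, from lists chosen by function, did not pass by limma either. Of 7 tested further V-ATPase genes, 39 hydrolases and activators, 24 membrane genes, 14 sorting genes, 15 genes of mTORC1 and the Ragulator complex, which senses nutrients at the lysosome, and 15 autophagy genes, 0 had a limma adjusted p-value under 0.05. Unadjusted p-values under 0.05 were found for 1, 9, 6, 2, 4 and 3 of them (shares from 14.3% to 26.7%, beside 14.2% of all genes), in both directions in each list except the first, which held 1 lower gene. On the recovered reads, 1 of these genes passed by edgeR (Ctsh) and 6 by DESeq2 (Atp6v1c2, Ctsh, Aga, Npc1, Tpcn1 and Laptm4a). Of all genes tested, 0.79% passed by limma, 1.11% by edgeR and 2.51% by DESeq2.

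Npc1 and Tpcn1 had the smallest p-values of the further membrane genes. Npc1 (ENSMUSG00000024413), which exports cholesterol from the lysosome, had 454, 584 and 812 as lowest, median and highest values in APOE2 and 837, 887, 890, 835 and 843 in APOE3. Every APOE3 library lay above every APOE2 library, where the ranges of the groups did not overlap for 0.984% of all genes. Means of 610.0 ± 117 and 859 ± 27.4 (SD) gave a log2 fold change of −0.51 ± 0.13 (SE). Its adjusted p was 0.0675 by limma, 0.0757 by edgeR and 0.0216 by DESeq2. On leaving out a library the limma adjusted p was 0.0327 without APOE2 replicate 6 and between 0.0546 and 0.153 otherwise. By limma it was 0.140 with no filter, 0.176 without the trend, 0.123 with the replicate block and 0.221 with the lung epithelial covariate. Npc1 overlaps Rmc1, with a mean of 81.1, on the opposite strand. Tpcn1 (ENSMUSG00000032741), a calcium and sodium channel of endosomes and lysosomes, had 373 ± 78.9 and 569 ± 87.7 (SD), a log2 fold change of −0.62 ± 0.16 (SE), with an adjusted p of 0.0675 by limma and 0.0202 by DESeq2. With equal totals the limma adjusted p of Tpcn1 was 0.0477, and with the lung epithelial covariate its log2 fold change was −0.36 (limma adjusted p = 0.605). Laptm4a, a transmembrane protein of late endosomes and lysosomes named here after its values were seen, had 12271 ± 1072 and 9926 ± 904 (SD). Its log2 fold change of 0.31 had an adjusted p of 0.168 by limma and 0.0355 by DESeq2.

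The protease gene Ctsh (ENSMUSG00000032359), strongly expressed in alveolar type 2 cells, had 141, 286 and 344 in APOE2 and 329, 459, 432, 726 and 381 in APOE3. Only APOE3 replicate 1 overlapped the APOE2 range. Means of 258 ± 72.8 and 465 ± 154 (SD) gave a log2 fold change of −0.85 ± 0.22 (SE, limma adjusted p = 0.0647), with adjusted p-values of 0.0496 by edgeR, 0.0129 by DESeq2 and 0.0298 by limma without APOE3 replicate 1. The lung epithelial marker sums given above were also higher in most APOE3 libraries. With the log2 marker mean, without Napsa and Lamp3, as a covariate the log2 fold change was −0.48 (limma adjusted p = 0.605). That marker mean was itself not balanced between hosts, so this fit cannot tell lung epithelium and host allele apart. With this covariate 4 genes of the whole table were called, against 98 without it. The part of lung epithelium in Ctsh was not tested. The further V-ATPase gene Atp6v1c2, an isoform of epithelia, had 11.3 ± 11.7 and 59.7 ± 40.4 (SD), a log2 fold change of −2.42 ± 0.87 (SE, limma adjusted p = 0.204), and −0.86 with that covariate. Its adjusted p was 0.0387 without APOE3 replicate 1 and 0.0441 by DESeq2, and it overlaps the abundant gene Pdia6, with a mean of 5995, on the opposite strand. Tcirg1, the a3 subunit gene of the pump, had −0.31 (limma adjusted p = 0.364).

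The mTORC1 and Ragulator list had 9 positive and 6 negative log2 fold changes, with a median of 0.067. Lamtor3 and Rraga, a Ragulator subunit and a Rag GTPase, had log2 fold changes of 0.56 ± 0.17 and 0.46 ± 0.14 (SE), both with a limma adjusted p of 0.123. Rraga had a limma adjusted p of 0.0260 without APOE3 replicate 1, and its log2 fold change was 0.21 (limma adjusted p = 0.745) with the lung epithelial covariate. In the same list Fnip1, an mTORC1 regulator named after its values were seen, had a log2 fold change of −0.40 ± 0.13 (SE, limma adjusted p = 0.154). In the hydrolase list Aga, the enzyme that cleaves asparagine-linked sugars, had 0.46 ± 0.13 (SE), with an adjusted p of 0.110 by limma and 0.0475 by DESeq2. In the sorting list the retromer gene Vps26a gave 0.45 and the adaptor gene Gga3 −0.48, with limma adjusted p-values of 0.202 and 0.331. Without APOE3 replicate 2 Vps26a was 0.24 (limma adjusted p = 0.411). In the autophagy list Vps18 gave 0.62 and the kinase gene Ulk1 0.36, with 0.212 and 0.244. Gga3 overlaps Mrps7 on the opposite strand.

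The mitochondrial ATP synthase, a rotary relative of the V-ATPase that makes rather than spends ATP, was set beside the pump as another rotary machine. This list was chosen with earlier results of these data known, so its counts are no independent evidence of a difference. Of its 18 genes 17 had a positive log2 fold change, with a median of 0.26. An unadjusted p-value under 0.05 was found for 9, all on the positive side, where 7.51% of all genes were. Of the 15 V-ATPase genes 6 were positive, with a median of −0.053, and 3 had an unadjusted p-value under 0.05, all on the positive side. Over all genes 50.1% were positive. By limma 1 of the 18 passed, and by edgeR and DESeq2 2 each, beside 0.79%, 1.11% and 2.51% of all genes. Usmg5 passed by all 3 methods, at 14923 ± 3976 and 7721 ± 2798 (SD), 2.01-fold higher in APOE2 (limma adjusted p = 0.0367). Atp5g3, a ring subunit gene named after its values were seen, had a log2 fold change of 0.44 and an adjusted p of 0.108 by limma, 0.0467 by edgeR and 0.00653 by DESeq2. Usmg5 lost its call without APOE2 replicate 1, 2, 3, 5, 7 or 8 or APOE3 replicate 2, 3 or 4, where limma adjusted p-values reached 0.0853. It also lost the call with no filter (0.156), without the trend (0.202), with robust variance (0.163), and with the lung epithelial (0.276) or leukocyte (0.0519) covariate. It overlaps Taf5 on the opposite strand. The difference between the 2 lists was not tested.

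**Figure D5:**
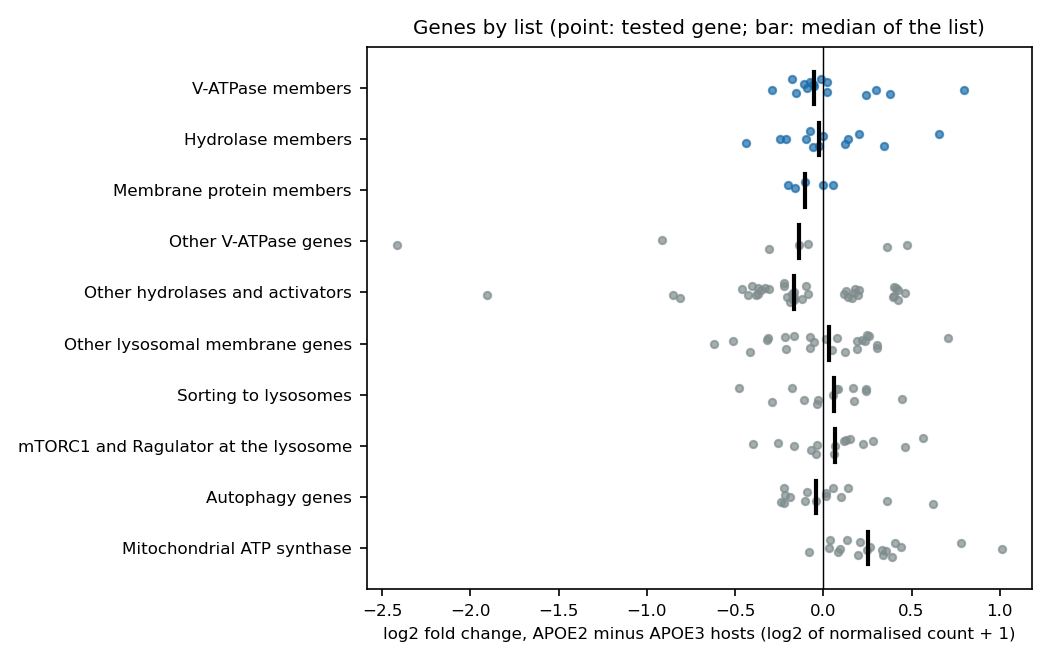
Log2 fold change (x axis, APOE2 minus APOE3 hosts) of the tested genes of each list (y axis), with a bar at the median. The V-ATPase, hydrolase and membrane protein members are centred near 0, with medians of −0.053, −0.022 and −0.10, and the mitochondrial ATP synthase genes lie to the right, with a median of 0.26.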

How the data were processed

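RNA was measured in 13 libraries, 8 from APOE2 and 5 from APOE3 hosts. Normalised counts, the signal analysed here, were deposited by the authors as a single table. STAR 2.6.0, featureCounts, DESeq2 1.28.1 and the build mm10 are named in the submitters' processing notes. Library preparation used QuantSeq FWD, per the labels' protocols. The annotation, the strand setting and the treatment of reads shared between copies are not given in the sources used here.

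In every column 100% of nonzero values were whole multiples of 1 step (tolerance 0.001), so reads were recovered. Identifiers were paired with symbols through GENCODE M21 (GRCm38), which named 22649 of 22656. The 12403 genes averaging 10 or more normalised counts entered limma 3.58.1 (R 4.3.3, variance trend, two-sided) as log2(value + 1), with Benjamini-Hochberg adjustment over all tested genes and a threshold of 0.05. edgeR 4.0.16 and DESeq2 1.42.0 were run on the recovered reads. Further alternatives were pseudocounts of 0.5 and 5, equal totals, TMM scaling, no filter, a minimum mean of 50, limma without trend or with robust variance, the replicate number as a block, lung epithelial and leukocyte marker covariates, replicates 1 to 5 alone and each library left out. The marker covariates were means of log2 values, without Napsa and Lamp3 for lung epithelium and without Lyz2 and Laptm5 for leukocytes. All 37 members passed the filter. Last 300 bases of members' transcripts were aligned to all GENCODE transcripts (at least 95% identity over 100 bases). The limma step was tested on simulated data. The members, lists and tests were chosen with earlier results of these data known. Members are all given; values by library are given for the 3 with the smallest p-value in the pump, hydrolase and membrane groups, for Tfeb, Tfe3, Grn and Gpnmb, and, chosen after its values were seen, Atp6v0c. Of each other list the genes past the threshold, or else the 2 with the smallest p-value, are named. Without molecular identifiers, reads do not count molecules. No 2 libraries of the same group agreed within sampling noise.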

Additional observations from a re-analysis of the deposited data

Results flagged for a closer look

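In groups of 4 to 10 libraries, Dixon's criterion (95%) compared the gap between the extreme library and its neighbour with the spread of the whole group. Among 102 such screens of the named genes 10 values stood apart, where chance gives about 5.1. APOE3 replicate 2 accounted for 4 of them: 10319 normalised counts of Atp6v1f (7043 to 7850 in the other APOE3 libraries), 3711 of Atp6v0a1 (1680 to 2080), 2641 of Atp6ap1 (1431 to 1680) and 3054 of Usmg5 (7826 to 10051). APOE3 replicate 1 stood apart for Rraga, with 4417 (2719 to 2965 in the others), and for Atp6v1c2, with 3.16 (50.8 to 113). APOE2 replicate 1 stood apart for Atp6v0b, with 3575 (2426 to 2749), and for Hexa, with 3064 (1811 to 2242). APOE2 replicate 3 had 447 of Ctsa (635 to 833), and APOE2 replicate 8 had 2647 of Atp6v1e1 (3150 to 3604).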

How the results depend on the processing

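No member passed the adjusted threshold under any of the 27 other settings. The number of genes called over the whole table, 98, was 9 with no filter on low values, 0 by limma without the trend (1599 at an unadjusted p-value under 0.05), 311 by DESeq2, 43 with a replicate block, 4 with the lung epithelial covariate, 55 with the leukocyte covariate and 40 with replicates 1 to 5 of both groups alone, a setting chosen after seeing the data. It ranged from 9 to 228 on leaving out a library. Of the 37 members, the 5 at an unadjusted p-value under 0.05 became 8 with equal totals or DESeq2, 3 without the trend or with the replicate block, and 2 with the leukocyte covariate, and ranged from 2 to 10 on leaving out a library. The difference between hosts of the V-ATPase mean minus that of the other genes, 0.054, ranged from −0.020 to 0.096 on leaving out a library. Replicate numbers pair no samples in the labels. Deviations of same-numbered libraries correlated between −0.063 and 0.014, and no APOE2 library correlated best with its own number. Of 518 member values under settings other than leaving out a library, 18 had the other sign, in members whose reported log2 fold change was at most 0.21 in size. They were Atp6v1a 0.0068 and Lamp2 0.020 with TMM scaling, Atp6v1c1 −0.019, Atp6v0b −0.020 and Ctsb −0.040 with equal totals, Ctsb −0.0043 by DESeq2, Lamp2 0.0046 by edgeR, Ctsb −0.030 and Lamp2 0.0096 both with the replicate block and with replicates 1 to 5 alone, Ctsa 0.059 with the leukocyte covariate, and Atp6v0e 0.060, Ctsa 0.12, Ctsd 0.014, Ctsl 0.070, Tpp1 0.054 and Gpnmb 0.045 with the lung epithelial covariate. On leaving out a library, log2 fold changes that changed sign had these ranges: Atp6v1a −0.15 to 0.042, Atp6v1c1 −0.0056 to 0.052, Atp6v1d −0.15 to 0.0027, Atp6v1f −0.10 to 0.037, Atp6v0a1 −0.24 to 0.042, Atp6v0b −0.075 to 0.095, Atp6v0e −0.18 to 0.023, Atp6ap1 −0.18 to 0.036, Ctsa −0.15 to 0.012, Ctsb −0.10 to 0.11, Hexa −0.021 to 0.23, Tpp1 −0.077 to 0.016, Lamp2 −0.062 to 0.048, Cd63 −0.0024 to 0.12, Mcoln1 −0.28 to 0.018, Gpnmb −0.13 to 0.069, Mitf −0.24 to 0.11. The causes were not tested. The sign of 19 members held under all settings.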
